A study of Caenorhabditis elegans with 2 samples.

Results

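Histone genes were taken as the protein-coding genes of Caenorhabditis elegans whose symbol starts with his-, which gave 72 genes of 19973 on the nuclear chromosomes of the WBcel235 (ce11) assembly. By their annotated products, 17 encode H2A, 16 encode H2B, 15 encode H3, 16 encode H4, 5 encode the replacement histone H3.3 (his-69, his-70, his-71, his-72 and his-74), 1 encodes the linker histone H1 (his-24), and 2 (his-39 and his-73) are short genes annotated only as containing a histone domain. The data were lists of regions enriched in chromatin immunoprecipitation sequencing (ChIP-seq) of PHA-4 fused to eGFP, from whole young adult worms of strain OP37, which carries unc-119(ed3) III and the transgene wgIs37. The labels give 2 biological replicates, pooled males and females and a size range of 150-350, with no second strain, stage or treatment, and whole worms do not separate tissues. A possible control is named there, but no untagged or input library was analysed here. No source used here gives read depth, read length or the peak caller with its settings, and a region's signal is therefore printed without a counting error.

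Histones are the proteins around which DNA is wound: H2A, H2B, H3 and H4 form the nucleosome core, and H1 binds the linker DNA between cores. Animal core histone genes are mostly intronless, lie in clusters of near-identical copies, are expressed with DNA replication, and give RNAs that end in a stem-loop in place of a poly(A) tail. The replacement histone H3.3 enters chromatin outside replication mostly from intron-containing genes with polyadenylated RNAs. PHA-4 is the C. elegans FoxA protein, a forkhead transcription factor that specifies the pharynx and also acts in the gut and in adult life span under dietary restriction.

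For each gene, the window ran from 1000 bp upstream to 200 bp downstream of any annotated 5′ end, and a region was assigned to the gene when its summit lay in that window. The pooled list, made by the authors from both replicates, put a region in the windows of 12 of 72 histone genes (16.7%, exact 95% interval 8.92 to 27.3). The same list put a region in the windows of 38.9% of all protein-coding genes. The share at histone genes was the lower, and its interval, which covers counting over genes only and treats neighbours that share windows as independent, lay below the share of all genes. Replicate 1 gave 10 of 72 histone genes beside 39.8% of all genes, and replicate 2 gave 13 of 72 beside 43.3%, so both replicates showed the low share. Many histone windows, though, were repeated sequence: in windows where over 50% of positions start a 36-base word found once in the genome, 12 of 31 histone genes had a pooled region (38.7%), beside 40.03% of all genes with such windows, and replicate 2 gave 13 of 31 (41.9%) beside 44.5%. Replicate 1 gave 9 of 31 (29.0%) beside 40.96%. These sets were not matched, since within them the histone windows had a median of 86.3% unique positions and those of all genes 100%. Shares in finer classes are given below. Across the 3 lists, 16 histone genes had a region in at least 1 list, 7 had one in both replicates, 6 had one in all 3, and 56 had none.

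A total of 9 pooled regions lay in histone windows. Their sequences are shown for the 6 whose summits lay nearest to the start of a histone gene on its upstream side, because they hold the DNA under the signal, and each stretch covers 100 bp on either side of the summit, read along the strand of the first-named gene. Sequences are from the RefSeq copy of the assembly. Capitals mark matches, on either strand, to the forkhead consensus TNTTTNN, where the N stand in turn for A or G, A or G, and C or T, and to 5 fixed words: GAGAGA; the E-box word CACGTG; the word TGATAA, known for GATA factors; the TATA-box word TATAAA; and GTGTCCC. This last word was added after these sequences had been compared. Every 36-base word in each stretch occurred once in the genome.
his-37 (chrV:9546894-9547094, plus strand): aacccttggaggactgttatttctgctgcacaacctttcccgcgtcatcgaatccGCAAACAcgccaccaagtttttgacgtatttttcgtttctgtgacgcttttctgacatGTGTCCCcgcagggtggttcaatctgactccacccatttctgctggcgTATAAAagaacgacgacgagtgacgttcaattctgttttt
his-24 (chrX:14489934-14490134, plus strand): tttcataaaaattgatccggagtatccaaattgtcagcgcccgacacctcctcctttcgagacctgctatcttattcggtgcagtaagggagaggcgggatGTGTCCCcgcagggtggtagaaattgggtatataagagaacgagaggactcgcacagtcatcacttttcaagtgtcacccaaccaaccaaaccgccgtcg
his-72 (chrIII:12369124-12369324, minus strand): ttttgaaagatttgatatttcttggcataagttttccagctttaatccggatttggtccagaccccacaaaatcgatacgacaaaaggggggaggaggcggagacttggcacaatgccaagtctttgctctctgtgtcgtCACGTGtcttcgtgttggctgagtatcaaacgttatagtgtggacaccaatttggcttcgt
his-62 and his-61 (chrIV:7486364-7486564, plus strand): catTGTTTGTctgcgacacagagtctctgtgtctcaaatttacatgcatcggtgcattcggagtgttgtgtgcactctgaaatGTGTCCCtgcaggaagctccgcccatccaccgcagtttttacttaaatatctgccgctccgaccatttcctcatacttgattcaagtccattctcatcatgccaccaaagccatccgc
his-35 and his-41 (chrV:9545288-9545488, minus strand): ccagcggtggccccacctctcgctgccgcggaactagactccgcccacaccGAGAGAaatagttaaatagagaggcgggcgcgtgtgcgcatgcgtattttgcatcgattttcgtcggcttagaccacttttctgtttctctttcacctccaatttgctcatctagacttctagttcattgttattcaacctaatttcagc
his-3 and his-4 (chrV:16040581-16040781, plus strand): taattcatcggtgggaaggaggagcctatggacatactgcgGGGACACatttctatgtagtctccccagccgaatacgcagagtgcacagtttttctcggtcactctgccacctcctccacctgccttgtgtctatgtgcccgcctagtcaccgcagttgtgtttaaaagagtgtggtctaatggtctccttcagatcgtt

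The spacers of 2 divergent pairs of core histone genes in large clusters are set beside them, because no list had a summit in either. The spacer of his-51 and his-52 occurred as 4 exact copies in the genome and that of his-14 and his-13 as 3, and no 36-base word in either was unique. Capitals mark the same motifs. The 2 sequences differ from each other, but each holds GTGTCCC on one of its strands and TATAAA.
his-51 and his-52 (chrV:8850172-8850463, plus strand): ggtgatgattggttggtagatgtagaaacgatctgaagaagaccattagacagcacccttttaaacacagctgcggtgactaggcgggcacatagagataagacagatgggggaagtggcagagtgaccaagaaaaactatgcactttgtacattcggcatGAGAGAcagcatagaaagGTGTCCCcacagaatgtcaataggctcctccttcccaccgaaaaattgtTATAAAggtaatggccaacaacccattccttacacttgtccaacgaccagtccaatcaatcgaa
his-14 and his-13 (chrII:13819938-13820209, plus strand): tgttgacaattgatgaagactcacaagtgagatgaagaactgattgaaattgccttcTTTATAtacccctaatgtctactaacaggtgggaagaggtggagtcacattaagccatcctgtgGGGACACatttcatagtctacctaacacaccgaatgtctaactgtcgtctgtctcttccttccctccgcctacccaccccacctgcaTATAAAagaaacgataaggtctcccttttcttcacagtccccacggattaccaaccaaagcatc

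The word GTGTCCC was frequent upstream of histone genes. It lay on either strand in the promoters, taken as 250 bases before to 50 after a 5′ end, of 51 of 72 histone genes (70.8%) and in 301 of 19973 protein-coding promoters (1.51%). Copies and shared spacers enter that count more than once. Among 51 distinct promoter sequences of 300 bases, 30 held the word (58.8%), which removes exact copies but still counts a spacer shared by a divergent pair for both genes. The matches lay at 33 distinct places in the genome, exact copies included. By product it was in 15 of 17 H2A promoters, 14 of 16 H2B, 9 of 15 H3, 11 of 16 H4, 1 of 5 H3.3 and the H1 promoter, and in neither short gene. Counted once for each promoter, its 61 matches were centred at a median of -125 bp from the 5′ end (negative is upstream), with quartiles of -183 and -99 bp.

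The same word lay within 100 bp of 4 of the 9 pooled summits in histone windows, beside 1.04% of 24890 summits in the pooled list and 2.62% of 839 in the optimal list, the authors' list of regions reproducible between replicates. In the sequences above, its centre was 4 bp from the summit at his-24, 14 bp at his-62, 16 bp at his-37 and 56 bp at his-3. Of the 12 histone genes with a pooled region, 8 had the word in the promoter, beside 51 of all 72 histone genes. Within the histone genes it was thus no more frequent where a region lay. Among the 250 other genes with the word in the promoter, 36% had a pooled region, beside 39.1% of the 19651 other genes without it. Since the word was picked from these sequences, the counts are a description. They do not show that a protein binds it.

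The forkhead consensus was no more frequent at histone genes than elsewhere. It lay in 33 of 72 histone promoters (45.8%) beside 52.3% of all promoters, and within 100 bp of 3 of the 9 histone summits beside 36.6% of all pooled summits. At his-37 its centre was 42 bp from the summit, as TGTTTGC on the minus strand. GAGAGA was in 33 of 72 histone promoters (45.8%, beside 21.8% of all) and near 2 of 9 summits (16.4% of all). TATAAA was in 47 of 72 (65.3%, beside 37.9%) and near 1 of 9 summits (19.996% of all). TGATAA was in 13 of 72 promoters (18.1%, beside 30.2%) and near none of the 9 summits (22.4% of all). CACGTG was in 1 histone promoter (1.39%, beside 5.82%), that of his-72, 42.5 bp from its summit. Exact copies and shared spacers enter all these promoter counts more than once, since the 72 histone promoters held 51 distinct sequences.

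The strongest region was at his-37, which encodes H4 and, unlike most H4 genes, has an intron. In the pooled list it had a signal of 89.8, rank 34 of 24890, at the 99.9th percentile, with q = 0.000608 (chrV:9546824-9547163, summit 111 bp upstream of the gene at chrV:9547105-9547607). Percentile here is the share of regions of the same list ranked below a region, and it is used because the scaling of the signal is not stated, so values from different lists cannot be set against each other. Replicate 2 gave 80.0, the 99.8th percentile, with q = 0.000293 and its summit at the same base. Replicate 1 gave 9.57, the 93.7th percentile, with q = 0.415 and a summit 87 bp away. A weaker replicate 1 region (4.62, 22.5th percentile) lay 978 bp upstream, within the bounds of both his-41 and the neighbouring gene C50F4.6. All 3 lists thus ranked his-37 near the top, and it was the 1 histone gene with a region in the optimal list, which held one for 3.52% of protein-coding genes. Its optimal region stood at the 96.0th percentile of the optimal list.

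The next strongest region was at his-72, a single gene for H3.3, with a pooled signal of 35.9 at the 94.8th percentile and q = 0.00117 (chrIII:12369054-12369393, 174 bp upstream). Replicate 1 gave 11.0 at the 96.8th percentile with a summit 77 bp upstream, and replicate 2 gave 24.9 at the 92.1st with a summit 212 bp upstream (q = 0.000637). It was the histone gene with the most regions, 4 in replicate 1, 3 in replicate 2 and 2 in the pooled list, spread over its annotated 5′ ends. It has 2 such ends, and so more window to hold a summit, whereas 70 of the 72 genes have 1. A replicate 1 summit counted here lay 827 bp from his-72 and nearer, at 579 bp, to rpt-6. The weaker pooled region, at a signal of 11.4 and the 32.5th percentile, lay 670 bp upstream of his-72 and 736 bp upstream of rpt-6, a proteasome gene on the other side.

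At his-24, the H1 linker histone gene, the pooled signal was 30.6, at the 92.2nd percentile, with q = 0.00490 and a summit 60 bp upstream (chrX:14489864-14490203). Replicate 1 gave 8.43 at the 88.6th percentile and replicate 2 gave 23.8 at the 91.4th (q = 0.000579), with summits 21 bp and 1 bp from the pooled summit. The 3 genes his-37, his-72 and his-24 were the histone genes with a pooled region at q of 0.05 or less, against a background of 12.8% of protein-coding genes, and 3 of 72 is 4.17%. None of the 3 is a single-exon core histone gene.

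**Figure D1:**
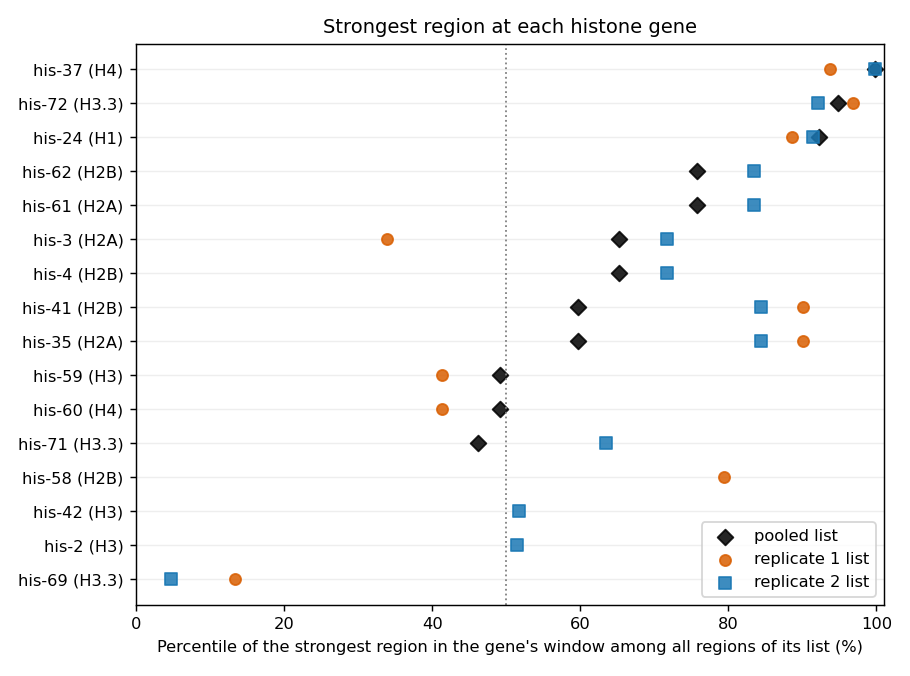
Signal percentile of the strongest region in the window of each of the 16 histone genes with a region in any list, within the pooled list (diamonds), replicate 1 (circles) and replicate 2 (squares). The dotted line is the middle of a list, and his-37, his-72 and his-24 lie at the 88.6th percentile or higher in all 3 lists.

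The divergent H2A and H2B pair his-61 and his-62 shared a pooled region of signal 18.4 at the 75.8th percentile with q = 0.179 (chrIV:7486294-7486633, 247 bp upstream of his-61 and 81 bp upstream of his-62). Replicate 2 gave 17.1 at the 83.5th percentile with q = 0.00797, and replicate 1 had no region there. The pair his-3 and his-4, also H2A and H2B, shared a pooled region of 15.5 at the 65.3rd percentile with q = 0.379 (chrV:16040511-16040850). Its overlap was again with replicate 2 alone, at 12.8, the 71.8th percentile and q = 0.0806. Both of these regions, at pairs of single-exon core genes, were thus found in replicate 2 and not in replicate 1.

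The divergent pair his-35 (H2A) and his-41 (H2B), both with introns and next to his-37, shared a pooled region of signal 14.5 at the 59.6th percentile with q = 0.477 (chrV:9545218-9545557). Each replicate ranked a region there higher than the pooled list did: replicate 1 gave 8.68 at the 90.04th percentile, and replicate 2 gave 17.7 at the 84.4th with q = 0.00547. The replicate 1 summit was 104 bp from the pooled summit, and that of the replicate 2 region lay 56 bp inside his-35. A weaker replicate 2 region (6.96, 20.1st percentile, q = 0.628) had its summit nearer, 59 bp from the pooled one. The 3 genes of this cluster were the only clustered genes with a region in all 3 lists other than his-3, whose replicate 1 region lay 971 bp upstream and did not overlap the pooled one.

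The H3 and H4 pair his-59 and his-60 had a pooled region of 13.03 at the 49.1st percentile, 134 bp inside his-59 and 391 bp upstream of his-60, which overlapped a replicate 1 region of 5.21 at the 41.3rd percentile and none of replicate 2. The single H3.3 gene his-71 had a pooled region of 12.7 at the 46.1st percentile and a replicate 2 region of 11.1 at the 63.5th, both 627 bp upstream, and no replicate 1 region. These pooled regions were near the middle of the list or below it. Over the 9 regions, the median percentile was 65.3, 6 stood above the middle, and 8 were upstream of the nearest histone 5′ end. The 9408 pooled regions in the window of any gene had a median percentile of 60.5.

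A further 4 genes had a region in a replicate list but none in the pooled list. For his-58 (H2B) it was in replicate 1, at the 79.3rd percentile and 888 bp upstream, within the bounds of the neighbouring gene his-57. For his-42 and his-2, both H3, it was in replicate 2, at the 51.7th and 51.4th percentiles, 688 and 836 bp upstream. The H3.3 gene his-69 had regions at the 13.3rd percentile of replicate 1 and the 4.68th of replicate 2, whose summits lay 241 bp apart. The remaining H3.3 genes, his-70 and his-74, had none in their windows, and the summits nearest to his-74 lay downstream, 541 bp from its 5′ end in the pooled list and 531 bp in replicate 2.

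The replicates differed in how many regions passed a q threshold. Replicate 2 had 7548 of 30000 regions at q of 0.05 or less, whereas replicate 1 had 13 of 30000, all mitochondrial, and its lowest nuclear q was 0.163. In replicate 2, 7 of 72 histone genes (9.72%, interval 3.999 to 19.01) had a region at that threshold, beside 20.6% of all genes. They were his-37, his-72, his-24, his-35, his-41, his-61 and his-62. Replicate 1 could give no histone gene at this threshold, so calls by q rest on replicate 2 and on the pooled list.

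**Figure D2:**
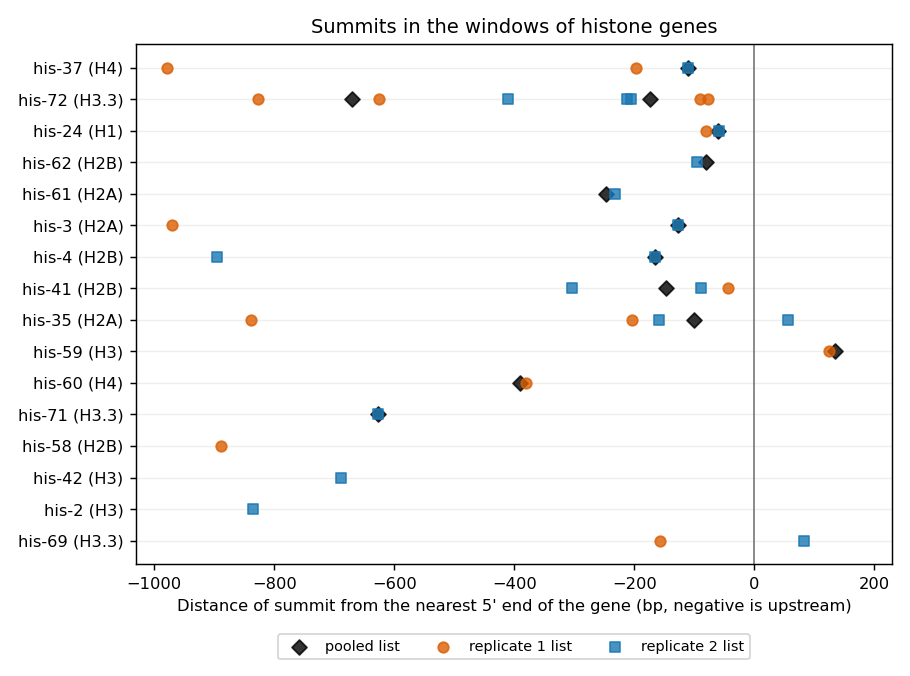
Distance of each summit from the nearest annotated 5′ end of the histone gene in whose window it lies, in bp with upstream negative, for the pooled list (diamonds), replicate 1 (circles) and replicate 2 (squares). Summits of his-24, his-61 and his-62 lie between 59 and 247 bp upstream, and those of his-58, his-42 and his-2 lie at 688 bp or more.

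Clustered and single histone genes were compared next. Genes whose bodies lay within 5 kb of each other were joined, which put 67 genes into 14 clusters and left 5 single genes, the H1 gene his-24, the H3.3 genes his-71, his-72 and his-74, and the short gene his-73. There were 10 clusters of 4 or more genes with 58 genes, and 4 clusters of 2 or 3 genes with 9; the largest held 13 genes (chrII:13817760-13828697). All 64 genes for H2A, H2B, H3 and H4 were clustered, so arrangement and product cannot be told apart for them.

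In the pooled list, 9 of 67 clustered genes had a region (13.4%, interval 6.33 to 23.97) and 3 of 5 single genes did (60.0%, interval 14.7 to 94.7). The share of all protein-coding genes, 38.9%, lay above the clustered interval and within the single one, so single genes were not shown to differ from all genes. The clustered minus the single share was -46.6 percentage points, and the intervals overlapped. It was -28.1 with a window of 500 bp upstream and 100 bp downstream, -28.1 in replicate 1 alone and -25.4 among windows over 50% unique. Within the clusters, the share was 6 of 58 in those of 4 or more genes (10.3%, interval 3.89 to 21.2) and 3 of 9 in those of 2 or 3 (33.3%, interval 7.49 to 70.1). The last 3 were his-35, his-41 and his-37. Of the 10 large clusters, 8 had no pooled region in any window, and the 6 genes with one came from the clusters of his-61, his-62, his-60 and his-59 on chromosome IV and of his-4, his-3, his-2 and his-1 on chromosome V.

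By product, a pooled region was found at 3 of 17 H2A, 3 of 16 H2B, 1 of 15 H3, 2 of 16 H4, 2 of 5 H3.3 genes and the H1 gene, and at neither short gene. The intervals of these classes overlapped. Replicate 1 gave 2 of 17, 2 of 16, 1 of 15 and 2 of 16 for the core classes, and 2 of 5 for H3.3. Replicate 2 gave 3 of 17, 3 of 16, 2 of 15 and 1 of 16, and 3 of 5 for H3.3. All protein-coding genes gave 38.9% in the pooled list, 39.8% in replicate 1 and 43.3% in replicate 2. The H3.3 share of 40% in the pooled list and in replicate 1 was close to that of all genes.

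Regions were also sparse over the whole spans of the large clusters. With 1 kb added on each side, these spans covered 75.3 kb and held 5 pooled summits, or 0.664 per 10 kb, beside 2.48 per 10 kb of the genome. Replicate 1 gave 6 (0.797 beside 2.99) and replicate 2 gave 8 (1.06 beside 2.99). The spans of the clusters of 2 or 3 genes held 7 pooled summits in 14.7 kb (4.75 per 10 kb), and those of the single genes held 10 in 14.1 kb (7.11 per 10 kb). Of these 10, 4 lay in the span of his-72. The single-gene spans were mostly the added flanks, whereas the genome rate covers all sequence, so these rates are not over like sequence. At the cluster of his-50, his-49, his-51, his-52, his-54 and his-53 (chrV:8847393-8854053), the nearest pooled summit lay 45390 to 49039 bp from the genes.

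The replicate lists gave the same order of shares. In replicate 1, 8 of 67 clustered genes (11.9%, interval 5.30 to 22.2) and 2 of 5 single genes (40%, interval 5.27 to 85.3) had a region. In replicate 2 it was 10 of 67 (14.9%, interval 7.40 to 25.7) and 3 of 5 (60%, interval 14.7 to 94.7). In each list the single share was the higher and the intervals overlapped. The shares of all protein-coding genes, 39.8% in replicate 1 and 43.3% in replicate 2, lay within the single intervals and above the clustered ones.

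The 13 genes of the largest cluster, his-16, his-15, his-14, his-13, his-12, his-11, his-10, his-9, his-25, his-26, his-44, his-43 and his-42, had no pooled region in a window, and their nearest pooled summits lay 1254 to 6576 bp from the gene starts. The gene his-42, at the edge of this cluster, was its 1 gene with a region in any list. The cluster of his-28, his-27, his-21, his-22, his-20, his-19, his-17 and his-18 (chrV:8889488-8898539) had no gene with a region in any list, although 1 pooled summit lay in its span with 1 kb flanks, 832 bp from the nearest gene start. The cluster of his-29, his-30, his-31, his-32, his-33 and his-34 (chrIV:8331044-8336340) had no summit in its span with 1 kb flanks in any list, and its nearest pooled summits lay 13838 to 18398 bp from the genes.

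On chromosome IV, 3 further clusters of 4 genes lay near each other. Those of his-47, his-48, his-46 and his-45 (chrIV:11324056-11326998) and of his-66, his-65, his-63 and his-64 (chrIV:11400415-11407427) had no summit in any list, and that of his-55, his-56, his-58 and his-57 (chrIV:11337853-11341703) had 2 summits of replicate 1 alone, of which the one at his-58 was in a window. The cluster of his-8, his-7, his-6, his-5 and the short gene his-39 (chrV:8532715-8536716) also had none in any list. Of its span with 1 kb flanks, 73.3% was unique. Its nearest pooled summits lay 1581 to 3709 bp from the genes. The windows of its genes were 50.4% to 79.3% unique. Among all genes with windows over 50% and under 90% unique, 23.9% had a pooled region.

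Of the small clusters, the pair his-38 and his-40 on chromosome X had no region in a window, with nearest pooled summits at 2453 and 2688 bp. The pair his-67 and his-68 on chromosome I had none either, with nearest pooled summits at 1486 and 1117 bp. The H3.3 pair his-69 and his-70 had a pooled summit of signal 25.6 in its span with 1 kb flanks, 796 bp downstream of the his-69 start and so outside the windows. The single short gene his-73 had none in any list, and its nearest pooled summit was 3723 bp away.

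The windows of clustered genes were largely made of repeated sequence, which bears on whether a short read from them can be placed. Of the positions in a window, the share that start a 36-base word found once in the genome had a median of 22.3% for clustered genes, with 20 of 67 at 0, and a median of 100% for single genes. All protein-coding genes had a median of 100%, and 573 of 19973 were at 50% or less, 41 of them histone genes. The spans of the large clusters were 40.4% unique, those of the small clusters 95.5% and those of the single genes 96.4%. Identical coding sequence added to this: 37 of 72 histone genes had at least 1 exact coding copy, and the 72 genes had 49 distinct coding sequences. How reads that match several places were treated is not stated in those sources.

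**Figure D3:**
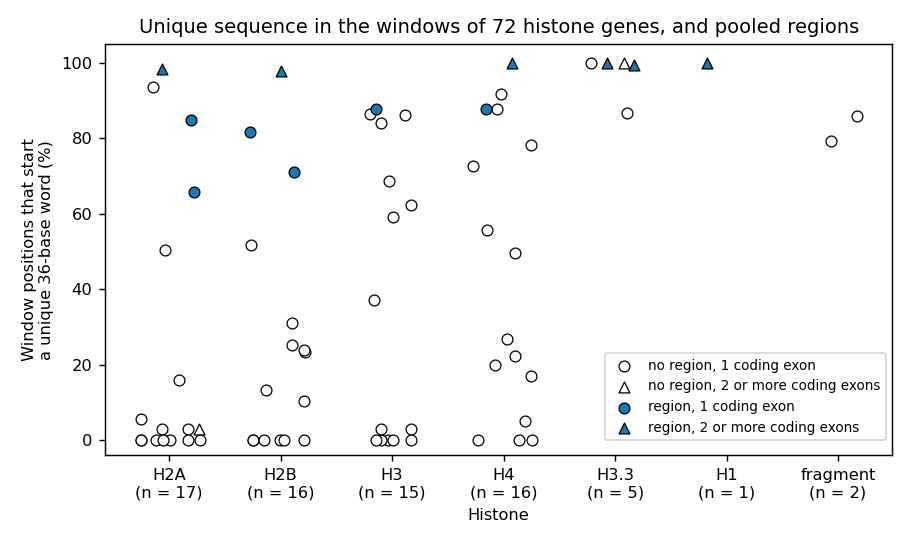
Share of window positions that start a unique 36-base word (vertical axis, percent) for each of the 72 histone genes by product; sideways spread within a class is only for legibility. Filled symbols have a pooled region and triangles have 2 or more coding exons, and no filled symbol lies at 50% or below.

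Beside genes with similarly unique windows, the intervals of the histone shares held the share of all genes. With windows at most 50% unique, 0 of 41 histone genes had a pooled region (interval 0 to 8.60%), beside 11 of 573 of all genes (1.92%). With windows over 50% and under 90% unique, it was 6 of 21 (28.6%, interval 11.3 to 52.2) beside 23.9%. From 90% to under 100% it was 3 of 5 beside 37.1%, and at 100% it was 3 of 5 beside 43.8%. In the class over 50% and under 90%, replicate 1 gave 3 of 21 histone genes (14.3%) beside 25.05% of all genes, and replicate 2 gave 6 of 21 (28.6%) beside 28.7%. All histone windows over 50% unique together gave 12 of 31 (38.7%, interval 21.9 to 57.8). Among these, the clustered genes gave 9 of 26 (34.6%, interval 17.2 to 55.7) and the single genes the same 3 of 5, and the clustered minus the single share was -25.4 percentage points. With so few regions at any gene with a repeated window, a missing region there does not show that PHA-4 was absent. The part of repeated sequence in the low share was not tested beyond these strata.

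**Figure D4:**
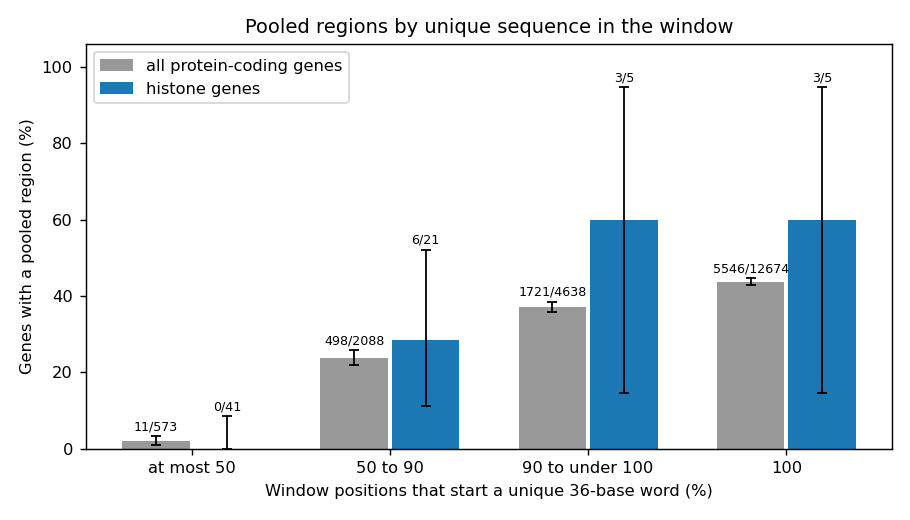
Share of genes with a pooled region (vertical axis, percent, from 0) by the share of unique 36-base words in the window, for all protein-coding genes (grey) and histone genes (blue), with exact 95% intervals and the counts above the bars. In the lowest class both shares are near 0, and in the other 3 the histone interval spans the value for all genes.

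Histone genes with introns held regions more often than those without. A pooled region was found at 6 of 8 genes with 2 or more coding exons (75%, interval 34.9 to 96.8; his-72, his-24, his-71, his-37, his-35 and his-41) and at 6 of 64 genes with 1 coding exon (9.38%, interval 3.52 to 19.3). The 2 intron-containing genes without one were his-74 and his-57. The exon count is the highest over the transcripts of a gene. The intervals did not overlap, but they treat genes that share a region as independent. The 6 single-exon genes were the pairs his-61 and his-62, his-59 and his-60, and his-3 and his-4, each sharing a region. The intron-containing genes his-35 and his-41 also shared theirs. Over all protein-coding genes the shares were 39.5% with 2 or more coding exons and 23.8% with 1. In windows over 50% unique, the histone counts were 6 of 7 (85.7%, interval 42.1 to 99.6) and 6 of 24 (25%, interval 9.77 to 46.7), whose intervals overlapped. The his-57 window, 3.00% unique, was the intron-containing one left out.

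The regions at q of 0.05 or less were divided in the same way. In replicate 2, among windows over 50% unique, 5 of 7 intron-containing genes had such a region (71.4%, interval 29.0 to 96.3) and 2 of 24 single-exon genes did (8.33%, interval 1.03 to 26.997). The 2 were his-61 and his-62, which share 1 region, and his-35 and his-41 also share theirs, so the counts rest on 4 regions and 1 region. All protein-coding genes, with no limit on unique words, gave 20.9% and 11.6% in replicate 2. With no such limit, the histone counts there were 5 of 8 and 2 of 64 (3.1%, interval 0.381 to 10.8). In the pooled list, the histone counts in windows over 50% unique were 3 of 7 and 0 of 24 (interval 0 to 14.2%). With no limit on unique words they were 3 of 8 and 0 of 64 (interval 0 to 5.60%), beside 13.01% and 6.82% of all genes.

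The 3′ stem-loop, the mark of replication-dependent histone RNA, was looked for after the stop codons. A perfect stem of 6 bases starting with GG, closed by a loop of 4 bases, was found within 100 bases after the stop codon of 56 of 72 histone genes (77.8%) and of 11 of 19901 other genes (0.0553%). It started 31 to 57 bases after the stop, with a median of 42. The 2 forms shown are the common one, in 51 genes, and the one in the H2B genes his-52, his-54, his-22 and his-20 of 2 clusters, with the stem in capitals and the loop in lower case.
his-16 (chrII:13817713-13817728, minus strand): GGCCCTctttAGGGCC
his-52 (chrV:8850872-8850887, plus strand): GGCCCTcttaAGGGCC

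None of the 8 intron-containing genes had the stem-loop where it was looked for, after the last coding base over all transcripts of a gene. For his-57, 1 transcript had the same coding sequence as the single-exon genes his-47 and his-65, and any earlier stop was not searched. Of those 2 genes, his-65 had the stem-loop and his-47 did not. Genes with a stem-loop had a pooled region in 6 of 56 cases (10.7%, interval 4.03 to 21.9), and genes without one in 6 of 16 (37.5%, interval 15.2 to 64.6), with overlapping intervals. The share of all protein-coding genes was 38.9%, close to that of the histone genes without a stem-loop. The 6 genes with a region but no stem-loop all had introns. In windows over 50% unique the counts were 6 of 19 (31.6%, interval 12.6 to 56.6) and 6 of 12 (50%, interval 21.1 to 78.9), with overlapping intervals. Both intervals held the 40.03% of all genes with such windows. The 8 single-exon genes without a stem-loop, which include both short genes, had 0 pooled regions. The exon count, the absence of a stem-loop and a unique window went together in the same few genes and cannot be told apart with 72 members.

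Genes that act with the histones were read in the same windows. Of 11 variant and linker histone genes without a his- symbol, 2 had a pooled region, htz-1, which encodes H2A.Z, and hil-1, an H1 gene, beside 38.9% of all genes. Replicate 1 gave 6 of 11 beside 39.8%, and replicate 2 gave 5 of 11 beside 43.3%. The htz-1 region stood at the 99.6th percentile of the pooled list and the 99.7th of replicate 2 (q = 0.000293, 303 bp upstream), but at the 49.6th of replicate 1. The gene cdl-1 encodes the protein that binds the histone stem-loop, and its region stood at the 98.4th percentile of the pooled list, the 82.4th of replicate 1 and the 98.4th of replicate 2 (q = 0.000293, 148 bp upstream).

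Of 14 histone chaperone genes, 9 had a pooled region (beside 38.9% of all genes), 9 a replicate 1 region (39.8%) and 10 a replicate 2 region (43.3%). At q of 0.05 or less it was 4 in the pooled list (beside 12.8%) and 7 in replicate 2 (beside 20.6%). The highest was lin-53, a gene for a chaperone of the RbAp48 family, at the 99.5th percentile of the pooled list and the 99.8th of replicate 2, with no replicate 1 region. It was followed in the pooled list by chaf-2 (93.3rd), a subunit of the assembly factor CAF-1, xnp-1 (87.5th), the ATRX homologue, and hira-1 (85.8th), the H3.3 chaperone. All these windows were at least 72.4% unique, with a median of 100%, beside 22.3% for clustered histone genes. Repeated sequence thus bears on them less, but not on none of them. The windows of unc-85 (72.4%), spt-16 (80.5%) and chaf-1 (88.0%) were under 90% unique, a class in which 23.9% of all genes had a pooled region.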

How the data were processed

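The deposited ce11 region lists give for each region a signal value and a −log10 of the q-value made by the authors, with a summit offset. No source used here states the caller, read depth, alignment settings or scaling of the signal. Values were therefore compared within a list only, by percentile (ties counted midway). The pooled list holds 24890 regions, each replicate list 30000, and the optimal list 839. Lists on another build, alignments and signal tracks were not used here.

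The 5′ ends came from Ensembl release 115 for WBcel235. Ensembl gives the 72 genes 50 distinct symbols, since copies share a symbol, so unique symbols (72 of 72 matched by gene ID), products and sequence came from RefSeq for the same assembly. For 64 members the annotated gene equals its coding sequence, so the 5′ end is the start codon. A summit counted for every gene whose window held it. Unique words of 36 bases were counted over both strands of the genome. Shares carry exact Clopper-Pearson 95% intervals, which cover counting error only. With 1 group, no test between conditions was possible and no p-value was computed here. The window count and the unique-word count were tested on simulated data with known answers.

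The members and gene lists were chosen with earlier results of these data known. Genes were named where they had an optimal region, were single with a region in any list, held the strongest pooled region of a cluster, or were among the 10 strongest regions of a replicate list; other genes with a region were added so that every member is accounted for. The splits by unique words, coding exons and stem-loop describe the members and were read after the counts were known. Alternatives were other windows, joining distances, thresholds and word lengths, each replicate alone, and, chosen after seeing the data, windows over 50% unique. Python 3.11.15, numpy 2.4.6, pandas 2.3.3, scipy 1.17.1 and matplotlib 3.10.9 were used.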

Additional observations from a re-analysis of the deposited data

How the results depend on the processing

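Of 64 recomputed values of 8 results, 41 stayed close to the value reported, 22 moved further and 1 changed sign. Close means within 1.5 times for a count, within 1 SD of the replicate lists for a share, a difference or a median percentile (SD 2.11, 14.1, 12.03 and 15.99 for the clustered share, single share, their difference and the median), and within the quartiles over genes for the share of unique words. Joining at 2 and 20 kb, counting regions that overlap the window, and words of 50 and 100 bases gave values close to those reported. The 500 bp window gave a single share of 40% and a clustered minus single difference of -28.1 percentage points. The 2000 bp window gave a clustered share of 22.4% and 17 regions. With 1 gene per region the clustered share was 7.46%, and over clusters of at least 4 genes it was 10.3%. At q of 0.05 or less the pooled list gave 3 histone genes in place of 12, a clustered share of 1.49%, a single share of 40%, 3 regions in place of 9 and a median percentile of 94.8. The optimal list gave 1 gene, a clustered share of 1.49%, a single share of 0%, a difference of 1.49 percentage points, which reverses the direction and rests on his-37 alone, 1 region and a median percentile of 96.0. With windows over 50% unique, chosen after seeing the data, the clustered share was 34.6% and the difference -25.4 percentage points. Without replicate 1 and without replicate 2, that is in the list of the other, there were 14 and 12 regions, a median percentile of 60.0 and 82.6, a single share of 60% and 40%, and a difference of -45.1 and -28.1 percentage points. The causes of these shifts were not tested, other than that stricter lists hold fewer regions.

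No paired analysis was possible because both replicates belong to 1 group. The limits are few members (5 single genes), shared windows and copied sequence, which make genes non-independent, unknown read depth, and a replicate 1 list with no nuclear region at q of 0.05 or less.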
